A study of Mus musculus with 2 samples.

Results

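The cells described here were gated in silico as type 2 conventional dendritic-like cells from 2 single-cell RNA libraries of mouse Lewis lung carcinoma (LLC) tumours. One library is labelled Dusp2 KO and the other Dusp2 WT, with 1 library per genotype. LLC is a mouse lung carcinoma line that is grown as a transplanted tumour. A barcode was kept with at least 200 genes and at most 20% mitochondrial unique molecular identifiers (UMIs, each of which marks 1 captured RNA molecule). A kept barcode was a member when it held at least 10 UMIs of the class II genes H2-Ab1 and H2-Aa together and at least 2 of Cd209a, Flt3 and Il1r2 together, called identity UMIs below. It could hold no Xcr1 or Clec9a (type 1 dendritic cells), no Siglech (plasmacytoid cells), no Cd3d, Cd3e, Cd79a or Ms4a1 (lymphocytes), fewer than 2 UMIs of Ccr7, at most 2 of the 3 C1q genes and fewer than 10 of S100a8 and S100a9. This gave 131 members in the KO library and 390 in the WT library, 521 of 22401 kept barcodes in all. These genes chose the cells, so their levels are given as a description and support nothing.

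Both samples are labelled as tumour-infiltrating lymphocytes from tumour tissue of LLC-bearing mice, KO mice lacking Dusp2 and WT mice carrying it. The sources used here do not say whether animals were pooled, how cells were sorted, how old the mice were or which stretch of Dusp2 is missing. The series' title places DUSP2 between type I interferon and NFAT signalling, and the genes of both pathways are therefore described. With 1 library per genotype there is no replicate spread and no test. Each interval below is a 95% interval that covers counting error only, and a difference between libraries cannot be told apart from a difference between genotypes.

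Conventional dendritic cells capture antigen in tissue and carry it to lymph nodes. The type 2 lineage presents it mainly on MHC class II to CD4 T cells, and depends on the growth factor receptor FLT3 and on transcription factors such as IRF4 and KLF4. In inflamed tissue and in tumours, monocytes can acquire MHC class II, Cd209a and other genes of this lineage, so the boundary between the 2 is not sharp. Il1r2 encodes a decoy receptor that binds interleukin 1 without signalling. Dusp2 encodes a nuclear phosphatase that switches off MAP kinases and is induced when immune cells are activated.

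The KO library held 12636 kept barcodes with a median of 4796 UMIs, and the WT library 9765 with a median of 8598. The members were closer in depth, with a median of 6702 UMIs and 2428 genes in KO and 9152.5 UMIs and 2792.5 genes in WT. The 2 libraries shared 31 barcode sequences, among them 1 KO and 1 WT member and none that was a member in both. Immunoglobulin RNA made up 0.0709% of the member UMIs in KO and 0.00381% in WT. The light chain gene Igkc was found in 126 of the 131 KO members, at 408 CPM (counts scaled to 1000000 UMIs of the cells summed), while the 390 WT members held 1 Igkc UMI. After thinning each cell to 2000 UMIs, which left out 8 KO and 2 WT members, Igkc was found in 59.3% of KO members and in 94.0% of the KO cells of a B and plasma gate. In the WT cells of that gate it was found in 23.9%. The tumour genes Krt8 and Rhox5 were found there in 52.2% and 56.5% of WT and in 5.22% and 8.55% of KO cells. In WT, 9715 of the 9765 kept barcodes lay outside the gate. Its WT shares below thus rest on few cells and are a poor reference for B cells.

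The label was checked against genes that the rule did not use. Clec10a and Mgl2, lectins typical of type 2 dendritic cells, stood at 228 and 237 CPM in KO members and at 202 and 268 CPM in WT members. Clec10a was at 50.6 CPM in KO and 70.9 CPM in WT cells of a C1q macrophage gate, and at 13.6 CPM in KO and 14.7 CPM in WT cells of a type 1 dendritic gate. Zbtb46, a transcription factor of conventional dendritic cells, was at 45.6 CPM in KO and 42.1 CPM in WT members, against 2.65 and 4.74 CPM in KO and WT macrophages. It was higher in type 1 dendritic cells, at 84.1 CPM in KO and 73.4 CPM in WT. Lyz2, the lysozyme of monocytes and macrophages, was at 3907 CPM in KO and 6208 CPM in WT members, against 1257 and 881 CPM in KO and WT type 1 dendritic cells and 12755 and 13477 CPM in KO and WT cells of a Ly6c2 monocyte gate. Plbd1, the given marker outside the rule, was at 597 CPM in KO and 606 CPM in WT members, but at 1249 and 1217 CPM in KO and WT type 1 dendritic cells and at 517 and 420 CPM in KO and WT monocytes. Summed over 18 genes of the type 2 lineage, the level was 4197 CPM in KO and 4443 CPM in WT members, above each of the 4 other gates, of which monocytes came nearest at 3730 CPM in KO and 4095 CPM in WT. Members thus had the highest levels of Clec10a and of this list, but Zbtb46 below and Lyz2 above type 1 dendritic cells, and the data bear out the label only in part. The cells are called Il1r2/Cd209a/Flt3 cells from here on.

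The mixture followed the number of identity UMIs. Among cells with exactly 2, just inside the threshold, there were 35 in KO and 78 in WT, and Clec10a was at 43.3 CPM in KO and 58.7 CPM in WT. Lyz2 was at 8884 CPM in these KO cells and 9051 CPM in these WT cells. Just outside the threshold, 97 KO and 152 WT cells held exactly 1 identity UMI and met every other limit. They had 21.0 CPM of Clec10a in KO and 19.3 CPM in WT, and 5610 CPM of Lyz2 in KO and 9115 CPM in WT. Among the 41 KO and 157 WT cells with 10 or more identity UMIs, Clec10a was at 527 CPM in KO and 386 CPM in WT, Zbtb46 at 105 CPM in KO and 68.8 CPM in WT, and Napsa, an aspartic protease, at 963 CPM in KO and 689 CPM in WT. Lyz2 was at 1187 CPM in KO and 2797 CPM in WT cells of this class. Cells at the threshold thus had Clec10a levels nearer to those just outside it than to those of cells with many identity UMIs. Clec10a, Zbtb46 and Napsa were highest in the latter. The listed type 2 genes Itgam and Sirpa did not rise with identity UMIs. Between 2 and 10 or more, Itgam fell from 353 to 120 CPM in KO and from 470 to 289 CPM in WT. Sirpa was at 121 CPM and 115 CPM in KO and at 195 CPM and 110 CPM in WT, in the same order. Cells with 10 or more identity UMIs were 31.3% of KO and 40.3% of WT members. Some results below are given for them as well. On the MHC class II limit, 14 KO and 34 WT members lay just inside with 10 to 19 UMIs, and 18 KO and 41 WT cells just outside with 5 to 9.

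**Figure D1:**
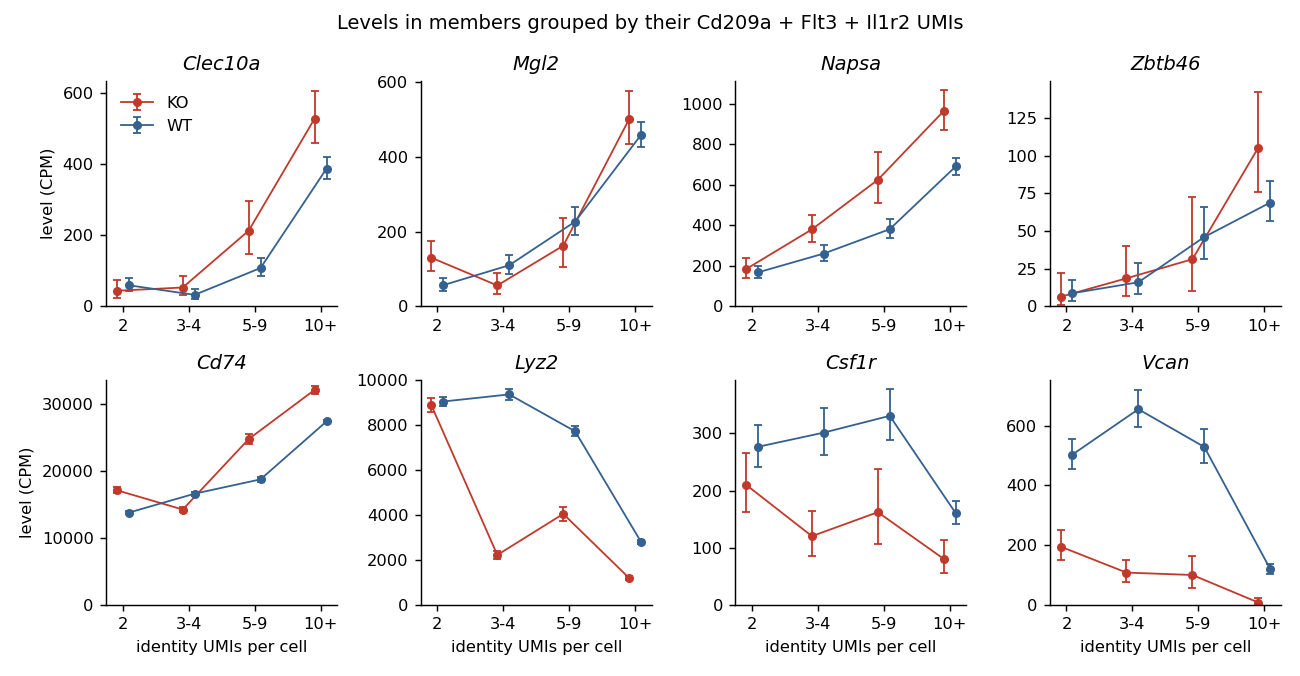
Levels (CPM, vertical axis) of 8 genes in Il1r2/Cd209a/Flt3 cells grouped by identity UMIs per cell (horizontal axis), KO in red and WT in blue. Points are UMIs summed over the cells of a class and bars are 95% counting intervals. Clec10a, Mgl2, Napsa, Zbtb46 and Cd74 are highest in both libraries at 10 or more identity UMIs, while Lyz2, Csf1r and Vcan are lowest there.

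Most members were admitted by Il1r2. It was found in 93.9% of KO and 96.4% of WT members, Cd209a in 37.4% of KO and 36.7% of WT members, and Flt3 in 28.2% of KO and 13.6% of WT members. Thinned to 2000 UMIs, the shares were 69.1% in KO and 70.4% in WT for Il1r2, 23.6% in KO and 25.5% in WT for Cd209a, and 14.6% in KO and 4.12% in WT for Flt3. The thinned share in the B and plasma gate was 6.16% in KO and 6.52% in WT for Il1r2 and 7.72% in KO and 0% in WT for Flt3. Cells with Il1r2 as their sole identity gene were 62 of 131 in KO and 228 of 390 in WT. All 3 genes were found in 16 KO and 33 WT cells.

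Cells carrying Cd209a differed from the other members in genes outside the rule. The genes named first were ranked on both libraries, so their shared direction is part of the choice. Retnla, a secreted resistin-like protein, was at 216 CPM in Cd209a-carrying and 5.0 CPM in other KO members, and at 109 CPM in Cd209a-carrying and 2.98 CPM in other WT members. Mgl2 was at 591 CPM against 56.3 CPM in KO and at 539 CPM against 103 CPM in WT, in the same order. Zbtb46 was at 103 CPM against 16.3 CPM in KO and at 82.7 CPM against 17.4 CPM in WT. The other genes highest in Cd209a-carrying cells of both libraries were Cd209d, Clec10a, Timd4, Cd7 and Klrd1. The lowest included C5ar1, the receptor for complement C5a, at 12.3 CPM in Cd209a-carrying and 299 CPM in other KO members and at 28.0 CPM in Cd209a-carrying and 439 CPM in other WT members. Apoe, a lipid carrier made by macrophages, was at 39.3 CPM against 269 CPM in KO and at 82.7 CPM against 664 CPM in WT. Not every gene had the same direction in both libraries. The log2 ratio of Cd209a-carrying over other members was 0.22 (−0.33 to 0.75) in KO and −0.81 (−1.09 to −0.54) in WT for Sirpa. For Klf4 it was 0.18 (−0.38 to 0.73) in KO and −0.39 (−0.68 to −0.10) in WT.

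Cells carrying Flt3 numbered 37 in KO and 53 in WT. Dpp4, a surface peptidase, was at 82.7 CPM in Flt3-carrying and 17.9 CPM in other KO members, and at 112 CPM in Flt3-carrying and 29.2 CPM in other WT members. Kit, the stem cell factor receptor, was at 54.1 CPM against 14.6 CPM in KO and at 71.6 CPM against 18.9 CPM in WT, in the same order. H2-Oa, which modulates peptide loading of MHC class II, was at 156 CPM against 33.6 CPM in KO and at 135 CPM against 20.7 CPM in WT. Lyz2 was at 1298 CPM in Flt3-carrying and 4825 CPM in other KO members, and at 2200 CPM in Flt3-carrying and 6805 CPM in other WT members. Adam23, Tbc1d4, Timd4, Lrrk1, Klrd1, Siglecg and Zfp366 were also among the 8 genes highest in Flt3-carrying cells. Cxcl1, Sparc, Slpi, Thbs1, Col3a1, C5ar1, Ccl2 and Plcb1 were the 8 lowest. Some of these rest on members that also carried RNA of tumour or stroma cells, described below. Such members held 98.0% of the Sparc UMIs in KO and 96.9% in WT. They held 82.4% of the Cxcl1 UMIs in KO and 65.1% in WT, and Col3a1 is among the genes that define them. The split is not given without these members.

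The 20 genes that set the members furthest apart from all other kept barcodes in both libraries are a description of the selection. Of 16485 genes measured in KO, 21% were at least 2-fold higher in members than in other barcodes, and of 16511 in WT, 8.7% were. Cd209d, a neighbour of Cd209a in sequence, was at 53.0 CPM in KO members and 3.61 CPM in other KO barcodes, and at 42.1 CPM in WT members and 1.73 CPM in other WT barcodes. Htr7, a serotonin receptor, was at 232 CPM in KO members against 19.9 CPM in other KO barcodes, and at 199 CPM in WT members against 36.9 CPM in other WT barcodes. Kmo, an enzyme of the kynurenine pathway, was at 48.9 CPM in KO members against 7.18 CPM in other KO barcodes, and at 28.1 CPM in WT members against 2.15 CPM in other WT barcodes. Wnt11, a secreted WNT ligand, was at 29.0 CPM in KO members against 2.64 CPM in other KO barcodes, and at 86.3 CPM in WT members against 11.5 CPM in other WT barcodes. Ifitm1, an interferon-induced membrane protein, was the most abundant of the 20, at 1348 CPM in KO members against 192 CPM in other KO barcodes and at 1456 CPM in WT members against 196 CPM in other WT barcodes. The list was completed by Clec10a, Spint1, Klri1, Zfp366, Ctnnd2, Rtn1, Map3k14, Ms4a4c, Cbfa2t3, Mcemp1, H2-DMb1, Vdr, Ifitm6, Sirpd and Gpr141.

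The Il1r2/Cd209a/Flt3 cells made up a smaller share of the KO than of the WT library. They were 131 of 12636 kept barcodes in KO (1.04%, exact Clopper-Pearson interval 0.868 to 1.23%) and 390 of 9765 in WT (3.99%, 3.61 to 4.40%), a log2 ratio of KO over WT of −1.95 (−2.23 to −1.66). The KO library held many B and plasma cells, and outside a gate for these the shares were 127 of 7328 (1.73%) in KO and 390 of 9715 (4.01%) in WT. Among the 3 dendritic gates together (these cells, type 1 and mature dendritic cells), they were 46.3% of 283 cells in KO and 76.9% of 507 in WT, a log2 ratio of −0.73 (−0.93 to −0.54). Among all myeloid gates they were 11.01% of 1190 cells in KO and 11.8% of 3293 in WT, and the interval of the log2 ratio, −0.11 (−0.37 to 0.16), includes 0. The C1q macrophage gate had a log2 ratio of −2.02 and the Ly6c2 monocyte gate one of −1.84 over all kept barcodes, close to that of the Il1r2/Cd209a/Flt3 cells. With at least 10 identity UMIs, the cells were 41 (0.324%) of the kept barcodes in KO and 157 (1.61%) in WT, a log2 ratio of −2.31. With at least 2 UMIs of Flt3 alone, they were 14 (0.111%) in KO and 20 (0.205%) in WT, a log2 ratio of −0.89.

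**Figure D2:**
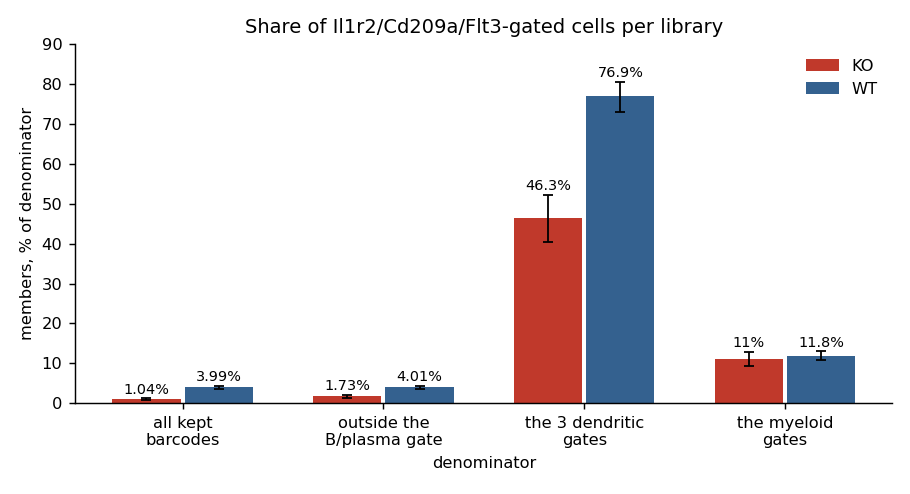
Share of Il1r2/Cd209a/Flt3 cells (percent, vertical axis) by denominator, KO in red and WT in blue, with exact 95% binomial intervals for counting error. The KO share is below the WT share for the first 3 denominators (46.3% and 76.9% among dendritic gates), and the intervals overlap for the myeloid gates (11.01% and 11.8%).

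The deleted gene was checked first. Dusp2 (ENSMUSG00000027368) had 13 UMIs in KO members (10.8 CPM) and 502 in WT members (133 CPM), a log2 ratio of −3.63 (−4.54 to −2.84). The 13 KO UMIs lay in 4 cells, while 194 of 390 WT members (49.7%) held at least 1. All 13 came from KO members that also carried RNA of tumour or stroma cells, defined as at least 2 UMIs of Rhox5, Krt8 and Krt18 or at least 2 of Col1a1, Col1a2, Col3a1 and Dcn. Of the 502 WT UMIs, 5.38% came from such members. Without them, Dusp2 had no UMI in KO and 475 in WT, and at a floor of 3 UMIs the log2 ratio is −5.46 or lower. After thinning, Dusp2 was found in 0.813% of KO and 17.5% of WT members, beside 0.965% of KO and 26.1% of WT cells of the B and plasma gate. The WT cells of that gate are few and often carry tumour RNA, as given above. In the other gates, the log2 ratio was −3.46 in mature dendritic cells, −2.26 in C1q macrophages and −6.90 in monocytes, and type 1 dendritic cells had 0 UMIs in KO and 38 in WT.

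Members with tumour or stroma RNA numbered 7 in KO (5.34%) and 17 in WT (4.36%). They were deep, with a median of 38057 UMIs in KO and 13301 in WT, against 6541.5 in the other KO members and 9059 in the other WT members. They supplied 21.0% of all member UMIs in KO and 8.96% in WT, so counts and ratios that change their call without them are given both ways. Scrublet, a doublet caller, marked no KO and 141 WT barcodes at its automatic threshold. Since no KO barcode was marked, a fixed share was also used. The highest scores, 10.1% of KO and 7.81% of WT barcodes, were therefore left out as an alternative, which removed 3 KO and 30 WT members.

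Of 8101 genes with at least 30 UMIs in members of 1 library, 206 (2.54%) were at least 2-fold higher in KO and 419 (5.17%) at least 2-fold lower. The log2 ratio was above 0 for 44.6% of them and below 0 for 55.4%, with a median over the genes outside the rule of −0.06. These shares are the background for the gene lists below. Genes were ranked by the bound of the interval nearest 0, and the 12 highest and 12 lowest are named.

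MHC class II genes outside the rule had like levels in both libraries. Cd74, the chaperone of class II molecules, was at 22314 CPM in KO and 20972 CPM in WT members, a log2 ratio of 0.09 (0.07 to 0.11). H2-Eb1, a class II chain, was at 6476 CPM in KO and 6124 CPM in WT. These 2 genes are not independent of the rule's class II limit. Members with 10 to 19 UMIs of H2-Ab1 and H2-Aa had 3301 CPM of Cd74 in KO and 5299 CPM in WT. Cells just outside, with 5 to 9, had 880 CPM in KO and 1368 CPM in WT. Of 14 measured genes of class II presentation, none differed by 2-fold, 9 were higher and 5 lower in KO, and the median log2 ratio was 0.09. Without members with tumour or stroma RNA, 10 were higher and 4 lower, with H2-Oa past 2-fold at a log2 ratio of 1.06, and with cells weighted equally 2 genes were past 2-fold. The widest were Cd9, a tetraspanin, at 298 CPM in KO and 185 CPM in WT, and H2-Oa at 65.5 CPM in KO and 35.5 CPM in WT. Ctss, the protease that trims the class II chaperone, was at 1459 CPM in KO and 1793 CPM in WT. The 20 MHC class I genes had a median log2 ratio of 0.05, with 12 above 0, 8 below it and none at 2-fold. Nlrc5, the class I transactivator, was the widest at 48.1 CPM in KO and 86.6 CPM in WT, and was past 2-fold, at a log2 ratio of −1.02, without members with tumour or stroma RNA.

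Genes of the type 2 dendritic lineage were also at like levels, with a few departures. Of 16 measured genes, 1 was at least 2-fold higher in KO and none 2-fold lower, with a median log2 ratio of −0.17. The log2 ratio was 0.17 (−0.03 to 0.37) for Clec10a, −0.18 (−0.37 to 0.01) for Mgl2, −0.02 (−0.14 to 0.10) for Plbd1 and 0.11 (−0.36 to 0.57) for Zbtb46. The gene past 2-fold was Cd7, an immunoglobulin-like receptor best known on T cells, with 104 CPM in KO and 36.5 CPM in WT and a log2 ratio of 1.51 (1.15 to 1.87). Its log2 ratio was 1.72 without members that held tumour or stroma RNA and 1.80 in members with at least 10 identity UMIs. Itgam, the CD11b integrin chain, was at 195 CPM in KO and 383 CPM in WT, and Sirpa, the receptor for CD47, at 107 CPM in KO and 156 CPM in WT. Of 28 transcription factors of dendritic cells, 7 were higher and 21 lower in KO, with 1 of them, Notch1, past 2-fold at 9.11 CPM in KO and 21.98 CPM in WT. Of the 28, 12 were higher and 16 lower without members with tumour or stroma RNA. Notch2, the receptor that directs part of the type 2 lineage, was at 113 CPM in KO and 215 CPM in WT, Zeb2 at 904 CPM in KO and 1365 CPM in WT, and Spi1, which encodes PU.1, at 428 CPM in KO and 620 CPM in WT. Of 15 co-stimulatory and checkpoint ligands, 9 were higher and 6 lower, and 1 reached 2-fold. That was Vsir, which encodes VISTA, at 33.97 CPM in KO and 68.0 CPM in WT. Its log2 ratio was −0.80 without members with tumour or stroma RNA, where no gene of the list reached 2-fold.

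Most monocyte and macrophage genes were lower in KO members. Of 15 measured monocyte genes, 5 were at least 2-fold lower and none 2-fold higher, with a median log2 ratio of −0.79. Of 12 macrophage genes, 7 were at least 2-fold lower and none 2-fold higher, with a median of −1.18. These counts were 5 of 15 monocyte and 3 of 11 macrophage genes without members with tumour or stroma RNA. Vcan, a proteoglycan made by monocytes, was at 96.9 CPM in KO and 371 CPM in WT, a log2 ratio of −1.94 (−2.22 to −1.67). Fn1, fibronectin, was at 78.7 CPM in KO and 266 CPM in WT, and Chil3, a chitinase-like protein, at 21.5 CPM in KO and 103 CPM in WT. Pf4, a chemokine of platelets and macrophages, had 9 UMIs in KO (7.46 CPM) and 433 in WT (115 CPM), a log2 ratio of −3.94 (−5.08 to −3.00). Arg1, arginase, was at 21.5 CPM in KO and 101 CPM in WT, and Mrc1, the mannose receptor, at 181 CPM in KO and 428 CPM in WT. Plac8, a small protein abundant in monocytes, was at like levels, with 624 CPM in KO and 597 CPM in WT.

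Summed over the whole monocyte list, all 15 genes were detected in both libraries, and single members ranged up to 39136 CPM in KO (median 2724) and up to 35553 CPM in WT (median 8466). The macrophage list had 11 of 12 genes detected in KO, with Mertk at 0, and 12 of 12 in WT. Its summed level ranged up to 7982 CPM in KO (median 829) and up to 14858 CPM in WT (median 1555). In members with at least 10 identity UMIs the median log2 ratio was −1.24 for the monocyte and −1.59 for the macrophage list. There, Vcan had 3 UMIs in KO and 193 in WT, a log2 ratio of −3.99 (−6.28 to −2.42), and Fn1 had 0 UMIs in KO and 129 in WT, at least 3.41 lower on the log2 scale at the floor of 3 UMIs. Without members with tumour or stroma RNA the medians were −0.54 and −0.82 in the same order. In the C1q macrophage gate, the monocyte list had a median of −0.13 and the macrophage list one of −0.14. Whether fewer monocyte-like cells or less of this RNA per cell lies behind these values cannot be told apart in summed counts.

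Most genes of the type I interferon response were lower in KO members. Type I interferons signal through a receptor pair to transcription factors that bind a short repeated motif in the promoters of antiviral genes. Of 47 measured response genes, 13 were at least 2-fold lower and none 2-fold higher in KO, beside the 5.17% and 2.54% of all genes. In all, 40 were lower and 7 higher, with a median log2 ratio of −0.51. Ifit3, an RNA-sensing antiviral protein, had 3 UMIs in 2 KO cells (2.49 CPM) and 78 in 17 WT cells (20.7 CPM), a log2 ratio of −3.05 (−5.36 to −1.45). Mx1, an antiviral GTPase, was at 3.31 CPM in KO and 21.4 CPM in WT, a log2 ratio of −2.69 (−4.60 to −1.28). Rsad2, which encodes viperin, was at 22.4 CPM in KO and 78.9 CPM in WT, a log2 ratio of −1.82 (−2.44 to −1.25). Ifit2 was at 8.29 CPM in KO and 34.7 CPM in WT, with a log2 ratio of −2.07 (−3.16 to −1.14). The farthest genes were thus of low level. Isg15, an abundant ubiquitin-like protein of the response, was at 309 CPM in KO and 422 CPM in WT, a log2 ratio of −0.45 (−0.62 to −0.29).

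Not all response genes were lower. Bst2, which tethers budding virus, was at 342 CPM in KO and 218 CPM in WT, a log2 ratio of 0.65 (0.47 to 0.82). Gbp2, a GTPase that also responds to interferon gamma, was at 196 CPM in KO and 154 CPM in WT. Of the receptors, Ifnar2 was at 188 CPM in KO and 321 CPM in WT, and Ifnar1 at 90.3 CPM in KO and 130 CPM in WT. Socs1, an inhibitor of the pathway, was at 98.6 CPM in KO and 50.04 CPM in WT, but 60.5% of its KO UMIs lay in members with tumour or stroma RNA, and without these its log2 ratio was 0.07 (−0.43 to 0.55). Bst2, with 43.8% of its KO UMIs in such members, had a log2 ratio of 0.33 (0.11 to 0.55) without them. The median of the response list was −0.46 without members with tumour or stroma RNA, with 9 of 47 genes at least 2-fold lower, and −0.47 in members with at least 10 identity UMIs. In that class, Rsad2 had 0 UMIs in KO and 122 in WT, and Isg15 was at 186 CPM in KO and 474 CPM in WT. The log2 ratios there were −1.53 (−3.87 to 0.14) for Ifit3 and −1.63 (−3.56 to −0.18) for Ifit2, nearer 0 than in all members. Mx1 was at −2.94 (−8.29 to −0.35) in that class. The median was −0.05 in C1q macrophages, −0.12 in monocytes, −0.24 in mature and 0.03 in type 1 dendritic cells, with 48, 47, 21 and 19 genes measured. Rsad2 had a log2 ratio of −0.00 (−0.13 to 0.12) in macrophages and −1.47 (−1.92 to −1.05) in monocytes. With C1q UMIs limited to 0, the median in members was −0.22.

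The promoters of Ifit3, Rsad2 and Isg15 are shown because they carry the interferon motif in different number and orientation while the 3 genes differed by different amounts. Each runs from 250 bases before to 50 bases after the start of the gene, from RefSeq on GRCm38.p6. Ifit3 lies at chr19:34583279-34583578 on the plus strand, Rsad2 at chr12:26456403-26456702 on the minus strand and Isg15 at chr4:156200769-156201068 on the minus strand. Capitals mark each match of the motif TTTCNNTTTC or, on the other strand, GAAANNGAAA.
Ifit3: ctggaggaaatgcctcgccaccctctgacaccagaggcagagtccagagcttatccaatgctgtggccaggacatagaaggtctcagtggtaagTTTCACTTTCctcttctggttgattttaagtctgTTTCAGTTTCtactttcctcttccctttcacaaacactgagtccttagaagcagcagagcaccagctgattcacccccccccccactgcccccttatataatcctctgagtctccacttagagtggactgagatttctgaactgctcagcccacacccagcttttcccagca
Rsad2: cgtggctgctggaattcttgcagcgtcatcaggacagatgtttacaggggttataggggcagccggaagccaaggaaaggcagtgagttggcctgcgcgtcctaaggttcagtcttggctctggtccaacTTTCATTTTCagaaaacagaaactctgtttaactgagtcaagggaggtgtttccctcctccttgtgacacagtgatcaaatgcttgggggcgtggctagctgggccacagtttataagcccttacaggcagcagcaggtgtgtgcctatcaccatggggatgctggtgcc
Isg15: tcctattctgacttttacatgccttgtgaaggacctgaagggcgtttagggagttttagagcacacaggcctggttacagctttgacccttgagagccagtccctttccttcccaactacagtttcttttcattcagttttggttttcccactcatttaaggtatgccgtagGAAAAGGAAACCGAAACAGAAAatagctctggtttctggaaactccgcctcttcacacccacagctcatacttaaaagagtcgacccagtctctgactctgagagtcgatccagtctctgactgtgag
Ifit3 held 2 separate matches, at −156 to −147 and −122 to −113 from the start, Rsad2 held 1, at −120 to −111, and Isg15 held 3 that overlap, from −78 to −57. Of 32851 promoters of this length, 1131 (3.44%) held a match on either strand, and of 27025 genes with such a promoter, 1079 (3.99%) did. Of 34 measured response genes with a promoter in the table, 20 (58.8%) held one, among them 6 of the 8 that were at least 2-fold lower in KO and 14 of the other 26. A match describes the letters in this window and is not evidence of binding.

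**Figure D3:**
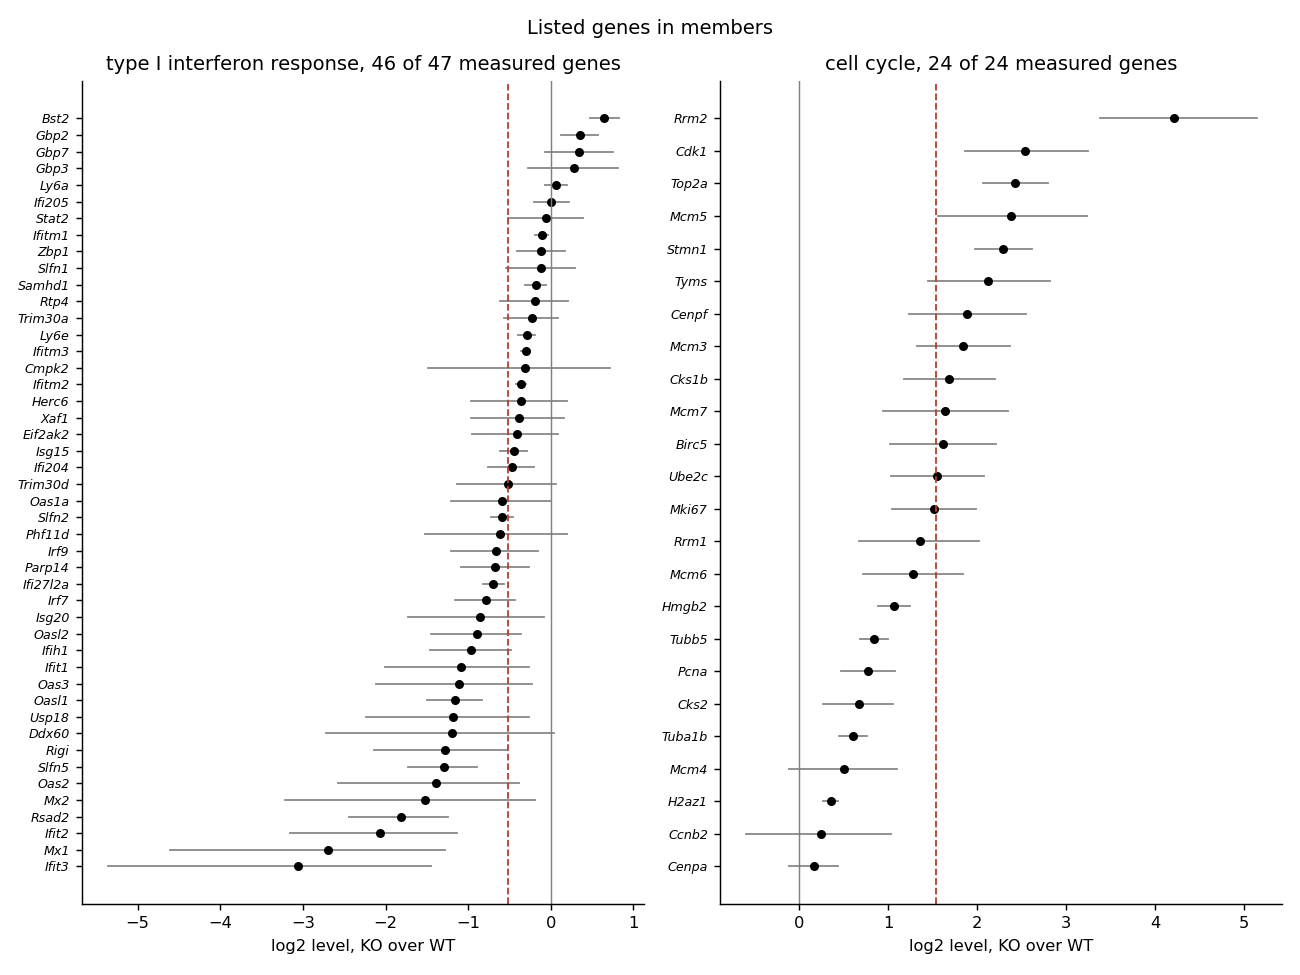
Log2 ratio of KO over WT (horizontal axis) for each measured gene of the type I interferon response (47 genes, left) and of the cell cycle (24 genes, right) in Il1r2/Cd209a/Flt3 cells. Points are ratios of summed levels, bars are 95% counting intervals, and the dashed lines are the list medians of −0.51 and 1.54. One of the 47 genes is not drawn. Of the interferon genes 40 lie left of 0, and all 24 cell cycle genes lie right of it.

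Cell cycle genes were higher in KO members, in part through a few deep cells. All 24 measured genes were higher in KO, 16 of them by at least 2-fold, with a median log2 ratio of 1.54. Top2a, a topoisomerase of dividing cells, was at 144 CPM in KO and 26.7 CPM in WT, a log2 ratio of 2.43 (2.07 to 2.80). Stmn1, a microtubule regulator, was at 176 CPM in KO and 36.0 CPM in WT, a log2 ratio of 2.29 (1.98 to 2.61). Rrm2, a subunit of the enzyme that makes deoxynucleotides, was at 68.8 CPM in KO and 3.71 CPM in WT, a log2 ratio of 4.21 (3.39 to 5.15). The PCNA-binding protein Pclaf, at 118 CPM in KO and 20.7 CPM in WT, the histone gene H2ac24, at 96.9 CPM in KO and 14.3 CPM in WT, and the linker histone gene H1f5, at 124 CPM in KO and 22.8 CPM in WT, were also among the 12 highest.

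Members with tumour or stroma RNA held 62.6% of the Top2a UMIs in KO and 35.6% in WT, and 81.9% of the Rrm2 UMIs in KO and 28.6% in WT. Without these members the list median was 0.70, with 17 of 18 measured genes higher, 8 of them by at least 2-fold, and the log2 ratio was 1.85 (1.33 to 2.37) for Top2a, 2.22 (1.81 to 2.62) for Stmn1 and 2.44 (1.19 to 3.75) for Rrm2. In members with at least 10 identity UMIs the median was 0.74, with 10 of 13 genes higher. Members with at least 3 UMIs of Mki67, Top2a, Rrm2 and Stmn1 together were 17 of 131 in KO (12.98%, 7.74 to 19.96%) and 16 of 390 in WT (4.10%, 2.36 to 6.58%). Without members with tumour or stroma RNA they were 13 of 124 in KO (10.5%) and 13 of 373 in WT (3.49%), and with at least 10 identity UMIs 7 of 41 in KO (17.1%) and 7 of 157 in WT (4.46%). After thinning, Top2a was found in 6.50% of KO and 1.80% of WT members, beside 16.4% of KO and 19.6% of WT cells of the B and plasma gate, which may itself hold dividing cells. The list median was −0.26 in type 1 dendritic cells, with 10 of 14 genes lower in KO, 0.33 over 12 genes in mature dendritic cells and −0.04 in C1q macrophages.

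Some of the 12 highest genes drew much of their KO level from 1 cell or a few cells. Krt8, an epithelial keratin, was at 117 CPM in KO and 20.9 CPM in WT, but 98.6% of its KO and 83.5% of its WT UMIs lay in members with tumour or stroma RNA. Without these, Krt8 had a log2 ratio of −0.85 (−4.04 to 1.29). Krt8 is itself one of the genes that define these members, so leaving them out removes most of its UMIs by definition. Csf3, the neutrophil growth factor, was at 69.6 CPM in KO and 12.7 CPM in WT with 66 of its 84 KO UMIs in 1 cell, and without members with tumour or stroma RNA its log2 ratio was −3.70 (−9.04 to −1.15). Hmox1, haem oxygenase, was at 281 CPM in KO and 57.7 CPM in WT, with 242 of 339 KO UMIs in 1 cell. Mmp12, a macrophage elastase, was at 96.9 CPM in KO and 17.2 CPM in WT, with 62 of 117 KO UMIs in 1 cell. At 10 or more identity UMIs, the log2 ratio was 0.47 (−0.52 to 1.37) for Hmox1 and 0.86 (−0.45 to 2.06) for Mmp12.

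Adam23 and Tbc1d4 did not rest on a single cell, which held at most 21 of 130 KO UMIs of Adam23 and 26 of 155 of Tbc1d4. Adam23 (ENSMUSG00000025964), a membrane protein of the ADAM family, was at 108 CPM in KO and 9.0 CPM in WT, a log2 ratio of 3.58 (3.03 to 4.17). It was found in 22 of 131 KO and 11 of 390 WT members, and after thinning in 12.2% of KO and 0.773% of WT members, beside 0.526% of KO and 0% of WT cells of the B and plasma gate. Tbc1d4 (ENSMUSG00000033083), a GTPase-activating protein for Rab proteins, was at 128 CPM in KO and 25.2 CPM in WT, a log2 ratio of 2.35 (1.97 to 2.74). It was found in 33 KO and 34 WT members. No Adam23 UMI lay in members with tumour or stroma RNA, and in cells with at least 10 identity UMIs the log2 ratio was 4.02 (3.31 to 4.78) for Adam23 and 2.44 (1.999 to 2.89) for Tbc1d4. Both genes were higher in Flt3-carrying cells, which were more frequent in KO, so the 2 classes were compared apart. In Flt3-carrying cells, Adam23 was at 296 CPM in KO and 51.1 CPM in WT, and Tbc1d4 at 360 CPM in KO and 100 CPM in WT. In the other members, Adam23 was at 41.4 CPM in KO and 2.74 CPM in WT, and Tbc1d4 at 47.0 CPM in KO and 13.99 CPM in WT. In mature dendritic cells, where both had higher levels, Adam23 was at 233 CPM in KO and 60.2 CPM in WT, while Tbc1d4 was at 1424 CPM in KO and 1528 CPM in WT.

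**Figure D4:**
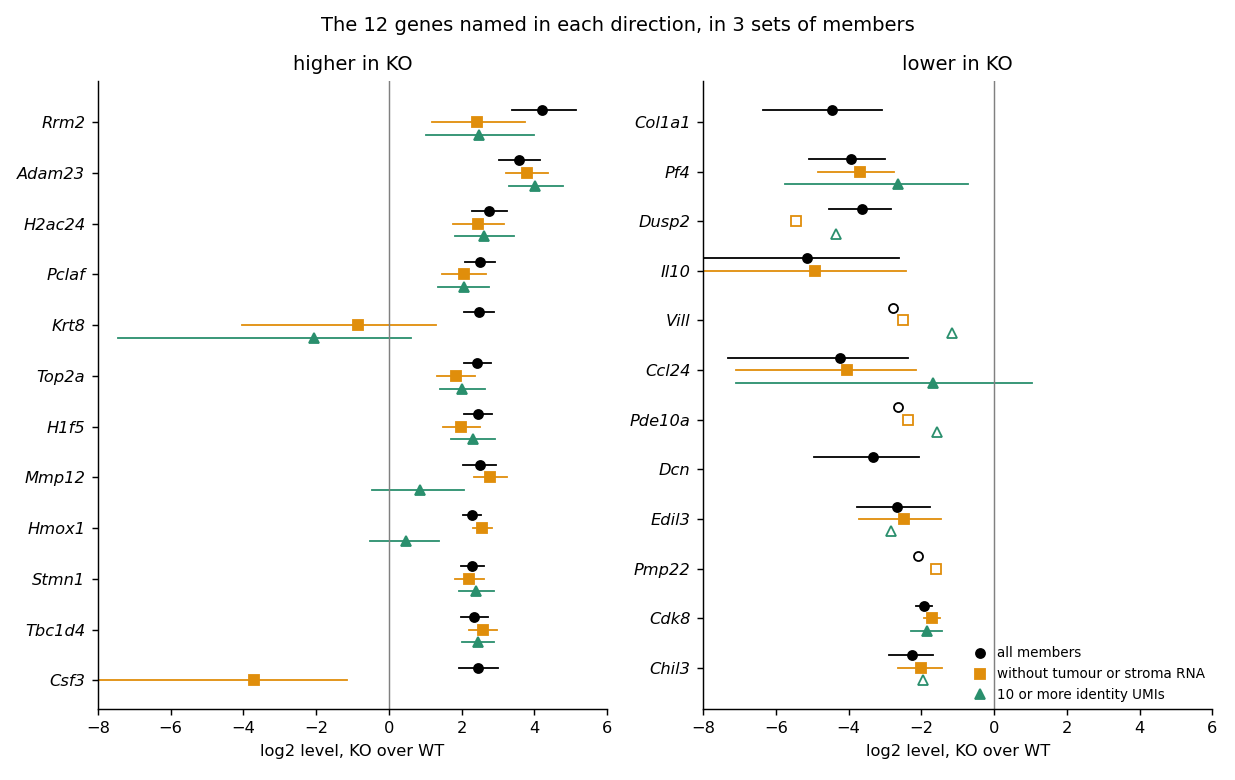
Log2 ratio of KO over WT (horizontal axis) for the 12 genes named in each direction, in all Il1r2/Cd209a/Flt3 cells (black circles), without members with tumour or stroma RNA (orange squares) and with at least 10 identity UMIs (green triangles). Bars are 95% counting intervals, cut at −8 for Il10 and Csf3, open symbols are upper limits at a floor of 3 UMIs in KO, and no symbol is drawn with under 10 UMIs in both libraries. Adam23 and Tbc1d4 stay between 2.35 and 4.02 in all 3 sets, while Krt8 and Csf3 change sign. Krt8 is one of the genes that define the members with tumour or stroma RNA.

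Among the 12 lowest genes beside Dusp2, Pf4 and Chil3, Cdk8 was the most abundant. Cdk8 (ENSMUSG00000029635), a kinase of the Mediator complex, was at 157 CPM in KO and 593 CPM in WT, a log2 ratio of −1.92 (−2.14 to −1.71), and at −1.85 in cells with at least 10 identity UMIs. It was lower in KO in all 4 other gates as well, with log2 ratios of −1.68 in C1q macrophages, −1.72 in monocytes, −1.004 in type 1 and −0.33 in mature dendritic cells. Il10, the anti-inflammatory cytokine, had 1 UMI in KO and 110 in WT, 36 of them in 1 cell, a log2 ratio of −5.14 (−10.45 to −2.63). Ccl24, an eosinophil-drawing chemokine, had 2 UMIs in KO and 119 in WT, 40 of them in 1 cell, a log2 ratio of −4.25 (−7.31 to −2.36). In cells with at least 10 identity UMIs, Ccl24 was at −1.68 (−7.09 to 1.05) and Pf4 at −2.66 (−5.74 to −0.73). Il10 had 0 UMIs in KO and 11 in WT cells of that class. Vill, a villin-like protein, had 0 UMIs in KO and 64 in 51 WT members, at least 6.82-fold lower at the floor of 3 UMIs. Pde10a, a phosphodiesterase, had 0 UMIs in KO and 59 in WT, at least 6.28-fold lower, and Pmp22, a membrane protein, 0 in KO and 40 in WT, at least 4.26-fold lower. Edil3, a secreted integrin ligand, was at 8.29 CPM in KO and 53.0 CPM in WT. The collagen gene Col1a1 had 4 UMIs in KO and 275 in WT with 266 of them in 1 WT cell, and Dcn, decorin, 5 in KO and 156 in WT with 95 in 1 WT cell.

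Signalling genes were mostly at like levels. Of 18 measured genes of NFAT and calcineurin, 4 were higher and 14 lower in KO, 2 of them by at least 2-fold, with a median log2 ratio of −0.32. Nfatc2 was at 9.94 CPM in KO and 27.5 CPM in WT, a log2 ratio of −1.47 (−2.47 to −0.60), and Nfat5 at 232 CPM in KO and 334 CPM in WT. The calcineurin subunit gene Ppp3cc was at 9.11 CPM in KO and 18.3 CPM in WT. Without members with tumour or stroma RNA the list median was −0.14. Of 9 other MAP kinase phosphatases, 2 were higher and 7 lower with none at 2-fold. Dusp5 was at 345 CPM in KO and 530 CPM in WT, Dusp16 at 66.3 CPM in KO and 115 CPM in WT, and Dusp1 at 378 CPM in KO and 426 CPM in WT. Of 26 genes of ERK feedback and immediate-early response, 1 was at least 2-fold higher in KO, Myc at 198 CPM in KO and 56.4 CPM in WT, and 2 were at least 2-fold lower, the ERK inhibitors Spred1, at 64.6 CPM in KO and 141 CPM in WT, and Spred2, at 16.6 CPM in KO and 35.0 CPM in WT. Members with tumour or stroma RNA held 89.5% of the Myc UMIs in KO and 61.5% in WT, and without them Myc was at 26.2 CPM in KO and 23.8 CPM in WT.

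Receptors and secreted factors differed by gene. Of 14 Toll-like receptor genes and adaptors, 3 were at least 2-fold lower in KO. Tlr5, the flagellin receptor, was at 2.49 CPM in KO and 15.1 CPM in WT, Irak3, which dampens the pathway, at 22.4 CPM in KO and 50.3 CPM in WT, and Tlr2, for bacterial lipoproteins, at 52.2 CPM in KO and 106 CPM in WT. The log2 ratio was −2.21 for Tlr5, −0.86 for Irak3 and −0.78 for Tlr2 without members with tumour or stroma RNA, and 2 of the 14 genes were then at least 2-fold lower. Of 19 chemokines, 2 were at least 2-fold higher and 5 lower in KO. Ccl9 was at 179 CPM in KO and 494 CPM in WT, a log2 ratio of −1.47 (−1.68 to −1.26), and Ccl8 at 4.97 CPM in KO and 25.4 CPM in WT. Cxcl1 was at 1015 CPM in KO and 393 CPM in WT and Ccl5 at 375 CPM in KO and 174 CPM in WT. Without members with tumour or stroma RNA, Cxcl1 was at 226 CPM in KO and 151 CPM in WT, and Ccl5 at 473 CPM in KO and 189 CPM in WT. Of 14 cytokines, 12 were lower and 2 higher in KO, with a median log2 ratio of −0.43. Il10, Il33, an alarmin, and Il15, a growth factor of lymphocytes, were at least 2-fold lower, with Il33 at 3.31 CPM in KO and 16.7 CPM in WT and Il15 at 6.63 CPM in KO and 16.9 CPM in WT. Of the 63 WT UMIs of Il33, 58 lay in 1 cell, so its ratio rests on that cell. Csf1, at 84.5 CPM in KO and 40.5 CPM in WT, and Il1a, at 46.4 CPM in KO and 22.8 CPM in WT, were at least 2-fold higher in KO. Il1a was found in 8 KO members, and 28 of its 56 KO UMIs lay in 1 cell. Of the KO UMIs of Csf1 94.1% lay in members with tumour or stroma RNA, and without these its log2 ratio was −0.81 (−2.35 to 0.44). Il1b, the most abundant of them, was at 5858 CPM in KO and 7215 CPM in WT. Of 20 genes of lipid handling and lysosomes, 5 were at least 2-fold lower in KO, among them Apoe at 191 CPM in KO and 444 CPM in WT and Trem2 at 24.0 CPM in KO and 53.2 CPM in WT. This count was 3 without members with tumour or stroma RNA, with a log2 ratio of −0.94 for Apoe and −0.82 for Trem2. Of 30 respiratory chain genes none reached 2-fold, and of 23 genes of glycolysis and hypoxia 1 did, Hilpda, a lipid droplet protein, at 70.4 CPM in KO and 147 CPM in WT. Hilpda had a log2 ratio of −0.91, below 2-fold, without members with tumour or stroma RNA.

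**Figure D5:**
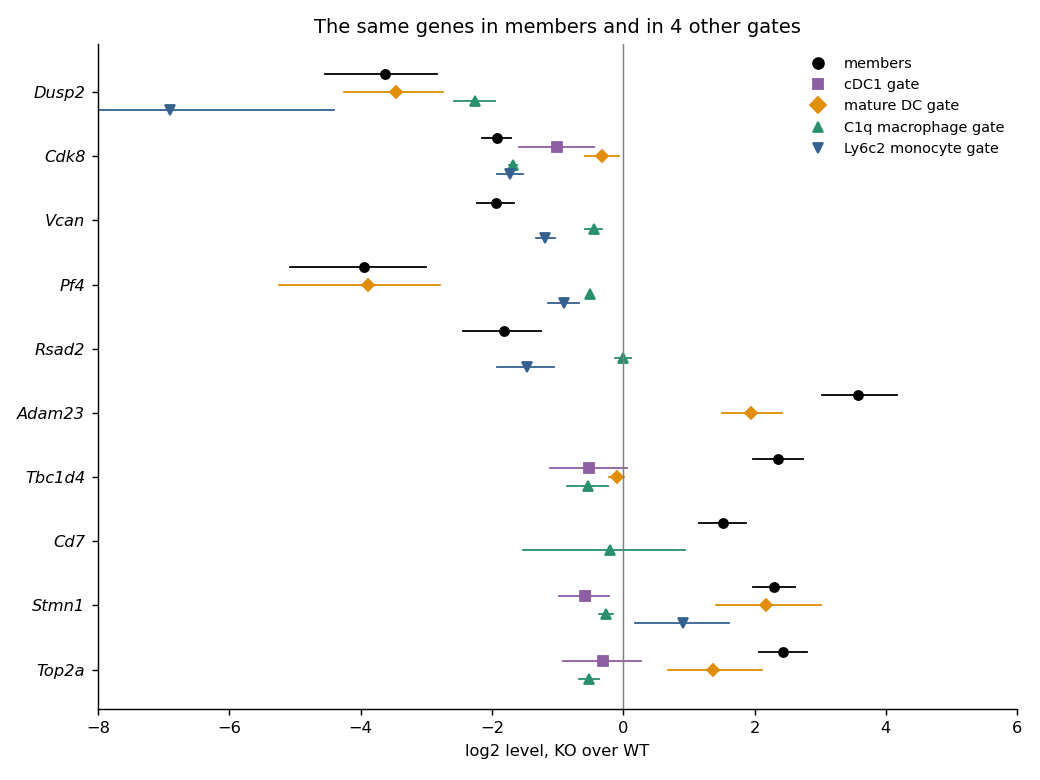
Log2 ratio of KO over WT (horizontal axis) for 10 genes in Il1r2/Cd209a/Flt3 cells (black circles) and in 4 other gates. Bars are 95% counting intervals, cut at −8 for Dusp2 in monocytes, and gates with too few UMIs have no symbol. Cdk8 lies left of 0 in all 5 groups, whereas Tbc1d4 is at 2.35 in Il1r2/Cd209a/Flt3 cells and at −0.10 in mature dendritic cells.

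The same ratios in the other gates are set side by side. Vcan was at −1.94 in Il1r2/Cd209a/Flt3 cells, −1.19 in monocytes and −0.45 in C1q macrophages. Pf4 was at −3.94 in these cells and −3.89 in mature dendritic cells, but at −0.51 in macrophages, where its level was 1080 CPM in KO and 1536 CPM in WT. Stmn1 was at 2.29 in these cells and 2.17 in mature dendritic cells, and at −0.59 in type 1 dendritic cells and −0.26 in macrophages. Cells with tumour or stroma RNA were not left out of any gate here. Summed over 9 LLC tumour genes, the level was 4463 CPM in KO and 1757 CPM in WT mature dendritic cells. It was 6600 CPM in KO and 4233 CPM in WT members. There, S100a6 alone gave 7502 of the 7966 KO UMIs and 15631 of the 15986 WT UMIs of this list. S100a6 was found in 99.2% of KO and 100% of WT members, so the sum is no measure of tumour RNA in them. Rhox5 was at 241 CPM in KO and 61.4 CPM in WT members. Whether the ratios above differ between gates was not tested.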

How the data were processed

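Per the labels' protocols, both libraries used version 3.1 of the Chromium Next GEM 3' chemistry from 10x. The labels give the molecule as polyA RNA for KO and total RNA for WT. The authors deposited raw UMI counts per gene and barcode, for 33696 genes. Per the submitters' processing notes, mm10 was the genome, with Cell Ranger 6.0.1 and with Seurat in versions 4.0.3 and 4.0.4, while Cell Ranger 8.0.1 is named per the file headers. No source used here states the gene annotation or how strand was handled. Members, gene lists and tests were chosen with earlier results of these data known.

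UMIs were summed per library over the cells of a gate and divided by all their UMIs (CPM), with exact Poisson intervals. The log2 ratio of KO over WT has the exact conditional interval for 2 Poisson counts, shares have exact Clopper-Pearson intervals, and the log2 ratio of 2 shares has a normal-approximation interval. Intervals and floors cover counting error only. A library with 0 UMIs was set to a floor of 3. Measured genes had at least 30 UMIs in members of 1 library. Named genes needed a UMI in 10 members and were not mitochondrial, ribosomal, haemoglobin, antigen receptor, predicted, sex-linked marker or rule genes. They were ranked by the interval bound nearest 0, the 12 highest and 12 lowest between libraries, the 20 highest against other barcodes in both libraries, the 8 highest and lowest of each split, and 2 to 4 genes per list. Genes such as Notch1, Ccl5, Isg15 and Hilpda, and those followed across gates and splits, were named for their role or to name a small count after their values were seen. Shares of cells with a UMI were thinned to 2000 UMIs. The script was tested on simulated counts. Tools were Python 3.11.15, numpy 2.4.6, scipy 1.17.1, pandas 2.3.3, scanpy 1.11.5 and matplotlib 3.10.9. Alternatives covered the rule's limits, cell filters, doublets, depth, cell weighting and gene minimum. Excluding members with tumour or stroma RNA, requiring 10 identity UMIs and, for lists, leaving out each gene's top cell were chosen after seeing the data. Results for 2 genes are not reported here, though both count in the list totals.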

Additional observations from a re-analysis of the deposited data

How the results depend on the processing

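No paired analysis was possible because each genotype has 1 library. Of 45 single genes, 40 kept the sign of their log2 ratio under every alternative tried. The others were Krt8 (−1.15 with Cd209a at 2 or more UMIs alone, −0.85 without members with tumour or stroma RNA, −2.07 at 10 identity UMIs), Hmox1 (−0.27 at 3 identity UMIs, −3.18 with Flt3 at 2 or more UMIs alone), Csf3 (−3.70 without members with tumour or stroma RNA), Rsad2 (0.20 with Cd209a alone) and Mx1 (0.13 after thinning to 3000 UMIs before the rule). Krt8 helps define the members with tumour or stroma RNA, so its value without them follows largely from that definition. The share among kept barcodes had a log2 ratio of −0.89 with Flt3 alone, −1.25 with no C1q UMI, −1.45 after thinning and −2.31 at 10 identity UMIs. Outside the B and plasma gate these were −0.21, −0.51, −0.79 and −1.57 in the same order. Among dendritic gates the ratio was −1.26 with Cd209a alone and −1.43 at 10 identity UMIs. The log2 ratio of Dusp2 was −5.93 with cells weighted equally and −5.46 without members with tumour or stroma RNA.

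Genes outside the rule at least 2-fold higher in KO numbered 205, and 51 with Cd209a alone, 41 with Flt3 alone, 106 with 20 class II UMIs, 122 with no C1q UMI, 46 after thinning, 414 at a gene minimum of 15 UMIs, 104 without members with tumour or stroma RNA and 78 at 10 identity UMIs. Those at least 2-fold lower numbered 417, and 103 with Flt3 alone and 629 at a minimum of 15 UMIs. The monocyte median was −1.04 at 3 identity UMIs, −1.65 with Flt3 alone, −0.57 with 20 class II UMIs, −0.64 with no C1q UMI, −0.58 with equal weights, −0.54 without members with tumour or stroma RNA and −1.24 at 10 identity UMIs. The macrophage median was −1.65 at 3 identity UMIs, −0.98 with Cd209a alone, −2.63 with Flt3 alone, −0.90 with 20 class II UMIs, −1.69 after thinning, −1.01 with equal weights, −1.48 without each gene's top cell, −0.82 without members with tumour or stroma RNA and −1.59 at 10 identity UMIs. The MHC class II median reversed to −0.21 with Flt3 alone, and was 0.00065 after thinning, 0.21 with equal weights and 0.22 without members with tumour or stroma RNA. The interferon median was −0.70 at 3 identity UMIs, −0.32 with Cd209a alone, −0.22 with no C1q UMI, −0.25 after thinning and −0.64 without each gene's top cell. The cell cycle median was 2.02 at 3 identity UMIs, 0.19 with Cd209a alone, 0.69 with Flt3 alone, 1.42 with 20 class II UMIs, 1.28 with no C1q UMI, 0.64 after thinning, 1.69 without Scrublet's highest scores, 0.87 with equal weights, 1.23 without each gene's top cell, 0.70 without members with tumour or stroma RNA and 0.74 at 10 identity UMIs. The cause of these shifts was not tested. Sets built on Flt3 or Cd209a alone hold few KO cells (14 and 41), so their counts of genes rest on less depth, and genes near 30 UMIs are the least precise.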
